A study of Mus musculus with 9 samples.

Results

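The cytosolic ribosomal protein genes are the genes for the proteins of the cell's main ribosomes, here taken as every row whose symbol begins with Rps, Rpl or Rplp followed by a number, with a few letter endings. This symbol rule found 83 of the 16367 genes in the table of sorted retinal cells and 84 of the 17035 genes in the table of cultured cells, where Rpl3l was the added gene. Of the 83, 32 belong to the small subunit (Rps) and 51 to the large subunit (Rpl and Rplp). The rule did not take in some others, among them Rpsa, Fau, Rpl36al, Rack1, Rps27rt and Rpl37rt, which are described apart. The group was selected on measured values: its higher share in the eyes with raised pressure, and Rpl35 as its leading gene, were known when the genes were chosen. The differences between those groups are therefore given as a description, with no p-value in their support.

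The study compared mouse Müller glia, the radial glial cells of the retina, in 3 groups of 3 libraries. The sorted libraries came from wild-type (WT) mice, each from 4 pooled neural retinas that were dissociated with papain, cleared of dead cells and captured magnetically through the glutamate transporter GLAST (ACSA-1), a surface protein that astrocytes also carry. Sham animals had a corneal incision without oil, and animals of the ocular hypertension (OHT) group received 1.2 µL of silicone oil in the anterior chambers of both eyes, a model of chronic mild pressure elevation. The untreated primary cultures, also WT, were grown from C57BL/6J pups at postnatal day 8 to 10 on gelatin in medium with fetal bovine serum, and were passaged. The sources used here give neither the age of the sorted animals nor the time after injection. Nothing in the labels says that the libraries of a group came from separate animals or cultures, so the spread between them may be partly technical.

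Ribosomal proteins are made in matched amounts and assembled with ribosomal RNA in the nucleolus into a small subunit, which reads the messenger RNA, and a large subunit, which joins amino acids and holds the tunnel through which the new chain leaves. Their messenger RNAs are short and abundant, and most begin with a C followed by a run of C and T, the 5′ terminal oligopyrimidine (TOP) tract, through which the growth-controlling kinase mTORC1 and the protein Larp1 regulate their translation. Most of these genes also have many processed pseudogenes, so that reads from them are hard to place.

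The sorted libraries held 37822145 to 53592052 recovered reads and the cultures 66309309 to 76745389. Levels are given as deposited normalised counts, or as ppm (reads per 1e+06 reads of the library) where the separately normalised tables are set side by side. The labelled cell type was checked against 14 Müller glia genes, among them Glul and Rlbp1. All 14 had reads in every library and together took 0.483% to 1.23% of the sham, 0.273% to 0.584% of the OHT and 0.309% to 0.387% of the culture libraries. In the cultures 81.0% of that sum was Vim, a filament gene that other cultured cells share, and the other 13 genes took 0.0547% to 0.0792%, beside 0.477% to 1.22% in sham and 0.263% to 0.576% in OHT. A list of 14 microglia and macrophage genes took more in every sorted library, 3.57% to 5.45% in sham and 4.94% to 6.47% in OHT, and 0.0107% to 0.0169% in the cultures. In the cultures Rlbp1 was at 2.24 ppm ± 0.620 against 1192 ppm ± 784 in sham (SD, n = 3), while a list of 13 vascular, mural and fibroblast genes took 1.62% to 1.91%. Most of that sum came from Acta2, Col1a1 and Col1a2, which averaged 10370, 5717 and 1414 ppm in the cultures. Of the 12 listed genes in both tables, 6 lay above every sorted library in all cultures, against 33.4% of all genes. Others were lower than in sham, such as Kdr (9.90 against 167 ppm) and Rgs5 (3.04 against 172 ppm). The sorted libraries thus hold reads of several cell types, and the cultures little of the Rlbp1 that defines Müller glia.

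The start regions of some of the genes are shown because most listed genes of the group carry a TOP-like tract near the start, which the symbol rule did not use. RefSeq lists promoters of the build GRCm38.p6 for 62 of the 84 genes. Each sequence below spans 30 bases before the annotated start and 20 from the start on, on the gene's strand. Capitals mark every run of at least 8 bases that are all C or T. The first is Rpl35, and Rpl7l1, a relative of Rpl7 with a small difference between the groups, is shown as a start without such a run. The others shown were picked for having a run. Many starts not shown lack a run in this span, also in genes with large log2 differences between OHT and sham, such as Rpl36a (1.96) and Rpl37a (1.86).
Rpl35, chr2:39005112-39005161, minus strand: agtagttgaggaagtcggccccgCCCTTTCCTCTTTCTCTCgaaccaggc
Rpl35a, chr16:33056452-33056501, plus strand, 1 of 3 listed starts: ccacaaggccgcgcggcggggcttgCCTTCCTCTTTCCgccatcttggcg
Rps27, chr3:90213629-90213678, minus strand: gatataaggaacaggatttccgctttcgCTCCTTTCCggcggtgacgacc
Rps6, chr4:86857348-86857397, minus strand: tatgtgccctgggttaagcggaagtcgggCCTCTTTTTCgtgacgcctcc
Rplp2, chr7:141447621-141447670, plus strand: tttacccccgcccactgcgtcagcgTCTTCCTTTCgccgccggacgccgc
Rpl38, chr11:114668550-114668599, plus strand: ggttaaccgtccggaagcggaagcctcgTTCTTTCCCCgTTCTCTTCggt
Rpl7l1, chr17:46782637-46782686, minus strand: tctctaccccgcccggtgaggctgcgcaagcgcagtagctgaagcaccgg

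In the window from 20 bases before to 50 after the start, a run of 8 or more C or T on the gene's strand was present in 49 of the 62 genes (79.0%). It was present in 28.0% of the 11154 tested genes with a listed promoter and in 28.5% of all 27025 listed genes. The motif CTCTTTC, read on the gene's strand and made of C and T only, so that it overlaps such runs, was present in the same window in 12 genes (19.4%), against 1.11% of the tested genes. The motif CCGGAAG, the core bound by ETS factors, was present on either strand between 250 bases before and 50 after the start in 25 genes (40.3%), against 18.2% of the tested genes. A match is a string of letters and not a measured site. Genes with the run had a median log2 difference between OHT and sham of 1.43 and those without it 1.28.

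The summed share of the 83 genes was 1.83%, 1.04% and 1.48% of the reads in the sham libraries 1 to 3, and 3.13%, 2.18% and 3.25% in the OHT libraries 1 to 3. The OHT libraries all lay above the sham libraries, and sham library 2 was the lowest of the 6. In the cultures the sum of 84 genes was 3.50%, 2.25% and 2.27%, so that culture 1 stood apart from the other cultures. Group means were 1.45% ± 0.396 (sham), 2.86% ± 0.588 (OHT) and 2.67% ± 0.716 (cultures; SD, n = 3). In bulk samples, fewer cells of a type and less RNA per cell cannot be told apart. The mitochondrially encoded genes took at least 14.1% of the reads in each sham library and at most 6.14% in each OHT library, and such a difference moves every share of a total. With those genes taken out of the total, the ribosomal protein share was 2.13%, 1.29% and 1.74% in sham and 3.34%, 2.28% and 3.32% in OHT, and the groups still did not overlap.

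**Figure D1:**
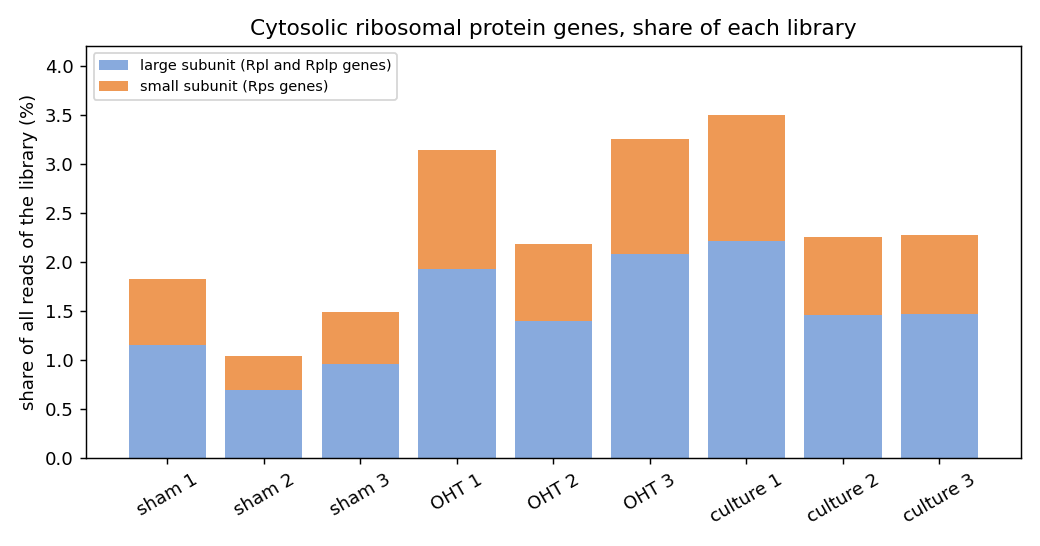
Share of each library's reads (percent, vertical axis) taken by large subunit and small subunit ribosomal protein genes, stacked, for the 9 libraries. The 3 OHT bars end between 2.18% and 3.25%, above the sham bars at 1.04% to 1.83%, and culture 1 ends at 3.50%.

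The balance of the subunits overlapped between the groups. Small subunit genes had 0.590, 0.502 and 0.546 reads per large subunit read in the sham libraries and 0.625, 0.559 and 0.562 in the OHT libraries. The means of 0.546 ± 0.0436 and 0.582 ± 0.0374 (SD, n = 3) differed by 0.0364, less than the pooled SD between replicates of 0.0407. The cultures were at 0.584, 0.545 and 0.545. This ratio is taken within a library and does not depend on the scaling between libraries.

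Gene by gene, the mean of log2(value + 1) was higher in OHT than in sham for all 83 ribosomal protein genes, with a median log2 difference of 1.42. The middle 50% of them lay between 1.16 and 1.54, whereas the median of all 14403 genes tested was -0.12 and 45.2% of those were above 0. The median was 1.40 over the 32 small subunit genes and 1.42 over the 51 large subunit genes. Without the log, Rpl39l had a lower mean in OHT (46.0 normalised counts) than in sham (63.1). A difference of at least 1 on the log2 scale was reached by 71 of the 83 genes, against 9.75% of all genes tested. In 71 genes the lowest OHT library lay above the highest sham library, against 9.26% of all genes tested. That share is higher among short genes: it was 28.5% of the other genes with under 300 coding bases, where 8 of 11 ribosomal protein genes did not overlap, and 27.0% from 300 to under 450 bases (25 of 28). It was 19.2% from 450 to under 600 bases (17 of 19) and 14.5% from 600 to under 900 bases (17 of 19). In none of the 83 did the highest OHT library lie below the lowest sham library, against 9.18% of all genes.

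**Figure D2:**
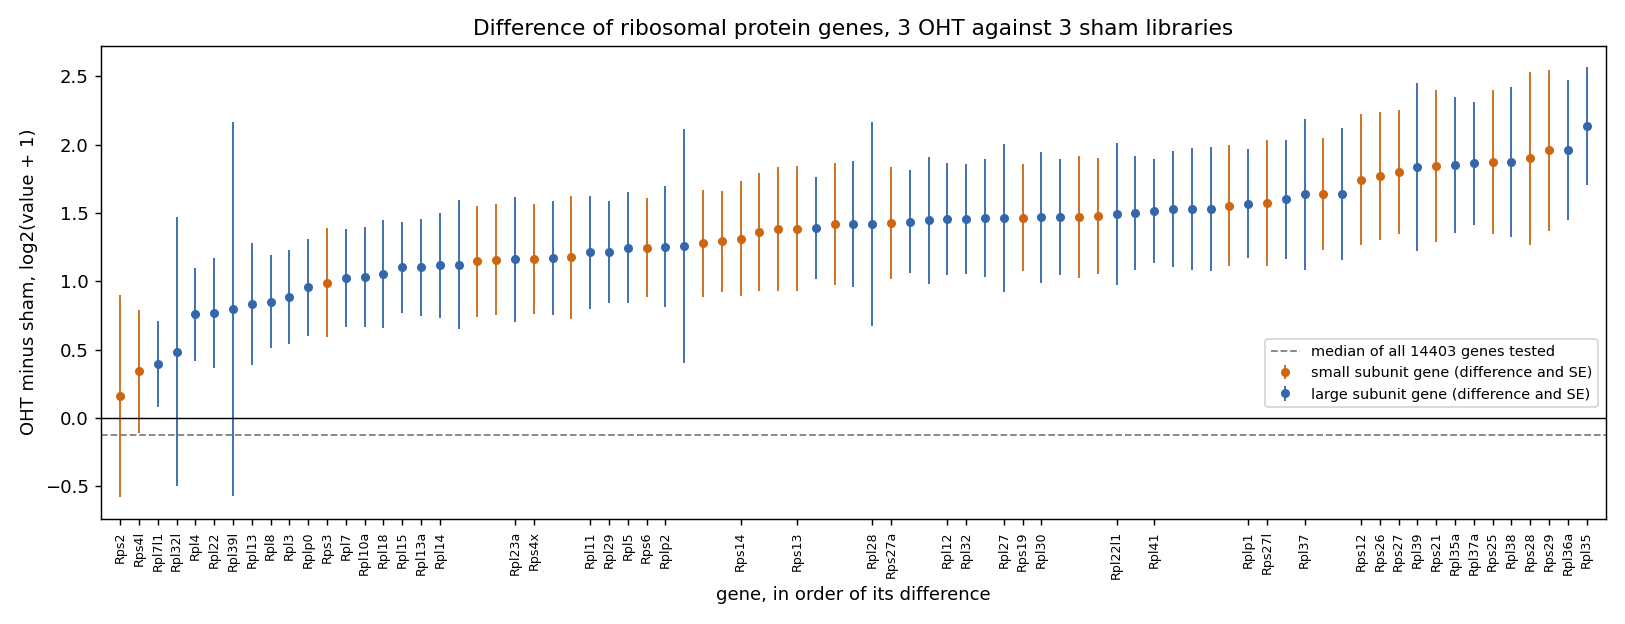
Difference of 79 of the genes between 3 OHT and 3 sham libraries on the log2(value + 1) scale (vertical axis), in order of size, with its standard error (SE), coloured by subunit and named where the text describes the gene. All points lie above 0, from 0.16 for Rps2 to 2.14 for Rpl35, and the dashed line marks the median of all genes tested at -0.12.

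In part, the size of these differences depended on the scaling between libraries. The median was 1.35 with TMM factors, 1.17 with each library scaled to its total and 1.08 after quantile normalization. The count of 71 genes without overlap was also 71 with TMM factors, 63 after quantile normalization and 62 with the library total (ppm), where the share of all genes was 5.44%. Among all 14403 genes tested, 1202 were higher without overlap with TMM factors and 1364 after quantile normalization. The 12 genes that overlapped on the deposited scale were Rpl13, Rpl22, Rpl23a, Rpl27, Rpl30, Rpl32l, Rpl37, Rpl39l, Rps13, Rps2, Rps29 and Rps4l. After Benjamini-Hochberg adjustment limma and edgeR each called 0 of 14403 genes (0%), and therefore none of the 83. At an unadjusted limma p under 0.05 there were 74 of the 83, with 11.7% of all genes. At the same level edgeR gave 73 of the 83, with 10.9% of all genes. DESeq2 called 16 of the 83, with 1.74% of all genes. These calls use the contrast that was known when the genes were chosen, and nothing is read from them here.

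The libraries of a group differed in the same way for nearly every gene. Sham library 2 was the lowest of the 6 sorted libraries for 78 of the 83 genes. On the deposited scale OHT library 1 was the highest for 81 genes, whereas in ppm OHT library 3 was the highest for 54 and OHT library 1 for 28. The median log2 difference was 1.08 without sham library 2 and 1.68 without OHT library 2. The number of genes without overlap was 71 to 79 when any 1 library was left out, while over all genes tested the share was then 10.8% to 18.0%.

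Rpl35, a large subunit protein beside the exit of the peptide tunnel and the leading gene of the group, was at 12298, 5589 and 11405 normalised counts in the sham libraries. In the OHT libraries it was at 48916, 23680 and 57404, so that the groups did not overlap. The log2 difference was 2.14 (SE 0.43). In ppm it was at 315, 142 and 268 in sham and at 743, 537 and 1520 in OHT, so that OHT library 3 was the highest by this measure. The cultures, at 651, 453 and 490 ppm, lay within the range of the sorted libraries. Of the stretches of 100 bases in its transcript, 83.0% also occur in transcripts of 4 other genes (Gm10269, Gm2000, Gm4342 and Wdr38), and how the authors counted reads that fit several genes is unknown from the sources used here.

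Other high differences were those of Rpl36a (1.96, SE 0.51), a large subunit protein near the tRNA exit site, and Rps29 (1.96, SE 0.59) and Rps28 (1.90, SE 0.63), small proteins of the small subunit head. Rps29 was at 61.0, 11.7 and 23.8 ppm in sham and at 102, 52.1 and 112 ppm in OHT, so that sham library 1 lay above OHT library 2. The differences of Rpl36a, Rps29 and Rps28 were 1.47, 1.37 and 1.33 without sham library 2.

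The smallest difference was that of Rps2, a protein at the entry of the messenger RNA channel, at 0.16 (SE 0.74). Rps2 was at 377, 232 and 326 ppm in sham and at 597, 503 and 78.9 ppm in OHT, so that OHT library 3 lay below every sham library. Without that library the log2 difference of Rps2 was 1.26, and without OHT library 1 it was -0.60. It was also below 0 after quantile normalization, with the library total, and without OHT library 2 or sham library 2. The cultures were at 123, 253 and 247 ppm. The Rps2 transcript shares stretches of 100 bases with 36 other genes.

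Rpl13, another large subunit gene, was at 824, 525 and 679 ppm in sham and at 1402, 976 and 724 ppm in OHT. Its OHT library 3 was also the lowest of that group, and the difference of 0.83 (SE 0.44) was 1.23 without it. Rps4l (0.34, SE 0.45) and Rpl32l (0.48, SE 0.98) have low levels, at 22.5 ppm ± 3.12 and 2.82 ppm ± 1.96 in sham (SD, n = 3). Rpl7l1 was at 127, 135 and 114 ppm in sham and at 130, 126 and 161 ppm in OHT, which overlap. On the deposited scale its groups did not overlap, and the difference was 0.39 (SE 0.32). Rpl4, which lines the exit tunnel and had the most reads of all the genes in sham, was at 1189, 961 and 1074 ppm in sham and at 1391, 1379 and 1843 ppm in OHT (0.76, SE 0.34). Its groups did not overlap.

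Because the genes were higher together on the log2 scale, each gene was also expressed as a percentage of the ribosomal protein reads of its own library. This measure is free of the scaling. By this share 65 of the 83 genes overlapped between sham and OHT, 8 were higher in every OHT library and 10 were lower in every OHT library. On the deposited scale, a different measure, 9.26% of all genes tested were higher and 9.18% lower in every OHT library. The counts by share are near these percentages and do not by themselves set the genes apart. The 8 were Rpl35, Rpl37a, Rpl35a, Rps27, Rps12, Rps19, Rpl12 and Rps27a. Rpl35 made up 1.72%, 1.37% and 1.81% of the sum in sham and 2.37%, 2.46% and 4.67% in OHT. Rps25, a small subunit gene (0.801%, 0.496% and 0.597% in sham, against 1.14%, 0.611% and 1.26% in OHT), also had a large ratio of group means, with overlap.

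The 10 with a lower share were Rps4l, Rpl7l1, Rpl22, Rpl4, Rpl8, Rpl13, Rpl10a, Rpl18, Rpl13a and Rpl14. Rpl4 made up 6.51%, 9.27% and 7.24% of the sum in sham and 4.44%, 6.32% and 5.67% in OHT. Rpl7l1 made up 0.695%, 1.31% and 0.767% in sham and 0.415%, 0.579% and 0.494% in OHT. Of these 10 genes 9 belong to the large subunit, as do 51 of the 83 genes. Rpl39l had the lowest ratio of the OHT to the sham mean, but this rested on sham library 1, at 0.0239% against 0.00181% and 0.00182% in the other sham libraries.

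**Figure D3:**
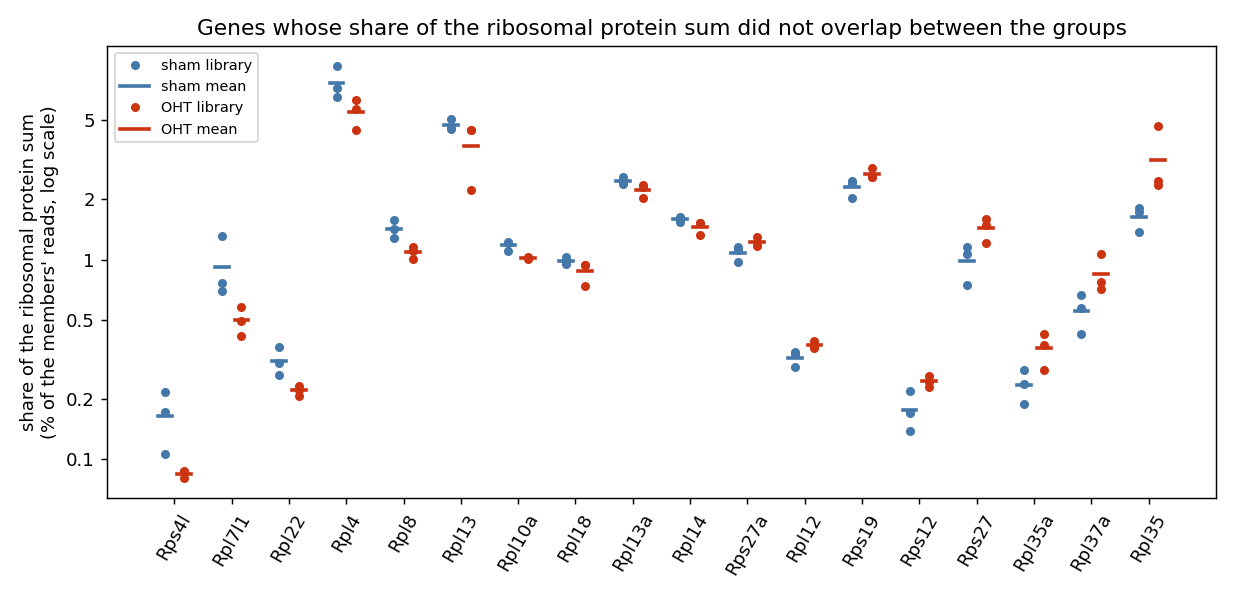
Share of the summed ribosomal protein reads (percent, log scale) of the 18 genes whose sham and OHT libraries did not overlap. Points are libraries and bars group means. Rpl35, at the right, has its OHT libraries at 2.37% to 4.67% and its sham libraries at 1.37% to 1.81%, and Rpl4 has the reverse order.

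The differences followed the length of the genes. Across the 80 genes with a coding length in GENCODE M21, the log2 difference had a Spearman rho of -0.73 and a Pearson r of -0.58 with coding length. Across all 13544 tested genes with a coding length the rho was -0.22. Genes share their libraries and are not independent points. In coding sequences under 300 bases the median difference was 1.84 over 11 ribosomal protein genes and 0.66 over 267 other genes. From 300 to under 450 bases it was 1.49 and 0.51, from 450 to under 600 bases 1.36 and 0.30, and from 600 to under 900 bases 1.12 and 0.06. The ribosomal protein genes thus lay above other genes of their own length in each of these ranges, and both medians were lower in longer genes. The 3 longest, Rpl3, Rpl4 and Rplp0, had a median of 0.88, beside -0.15 for 3798 other genes of 900 to under 1500 bases.

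**Figure D4:**
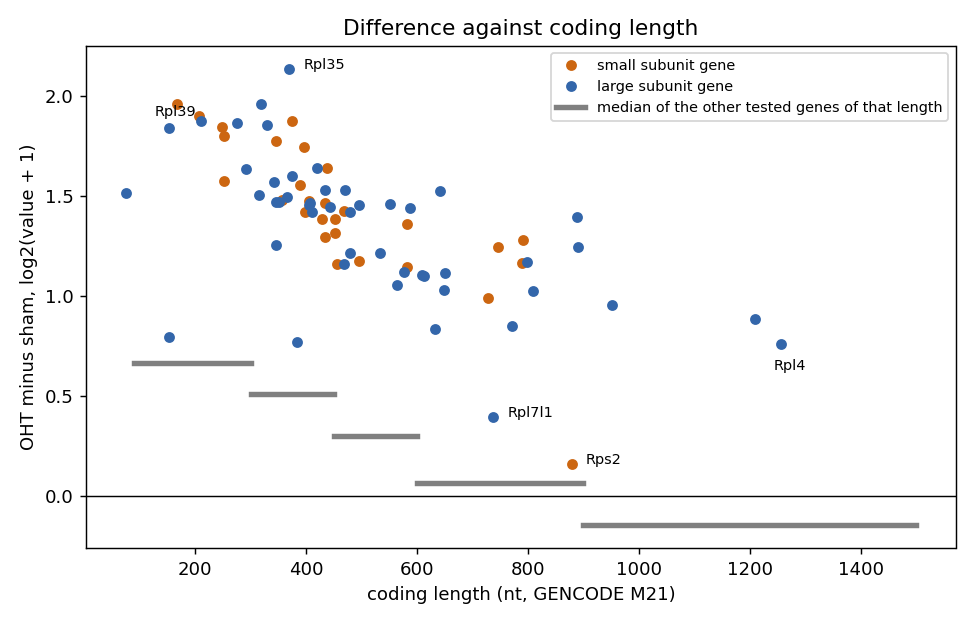
Log2 difference between OHT and sham (vertical axis) against coding length in bases (horizontal axis) for 76 of the 80 ribosomal protein genes with a coding length, with grey bars at the median of the other tested genes in each length range. The points go from a median of 1.84 under 300 bases to 0.88 at 900 bases and above, and the grey bars from 0.66 to -0.15.

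Length also separated some libraries of the same group in these genes. Across the 80 genes, the deviation from the group mean had a Spearman rho with coding length of -0.72, 0.77 and 0.04 for sham libraries 1 to 3. The rhos were -0.03, 0.45 and -0.33 for OHT libraries 1 to 3 and -0.35, 0.57 and -0.26 for cultures 1 to 3. Over all 13544 tested genes they were -0.04, 0.09 and -0.04 for the sham and -0.27, 0.14 and 0.18 for the OHT libraries. Deviations of 3 libraries from their own mean balance out, so the rhos within a group are not independent. With each library corrected for coding length by a spline, a setting chosen after seeing the data, the median difference of the 80 genes was 1.27 beside 0.18 for all genes, and that of Rpl35 was 1.90. With coding length and GC content it was 1.23, and 2.07 for Rpl35. Whether RNA quality, amplification or the cells set the relation to length was not tested.

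By place in the ribosome, the genes of the stalk that recruits elongation factors were at 1.57 (SE 0.40) for Rplp1, 1.25 (SE 0.44) for Rplp2 and 0.96 (SE 0.35) for Rplp0. Rplp0 was at 890, 663 and 867 ppm in sham and at 1326, 1246 and 1346 ppm in OHT, without overlap. Rpl5 and Rpl11, which with the 5S ribosomal RNA form the particle that binds Mdm2 when assembly is disturbed, were at 1.25 (SE 0.41) and 1.21 (SE 0.41). Rps6, the small subunit protein that S6 kinase phosphorylates, was at 271, 196 and 249 ppm in sham and at 521, 340 and 594 ppm in OHT, with a difference of 1.25 (SE 0.37). The 9 genes assigned to the exit tunnel spanned 0.76 (Rpl4) to 2.14 (Rpl35) with a median of 1.46. The 12 of the small subunit head had a median of 1.48, the 12 of its body 1.40, and the 5 of the messenger RNA channel and decoding site 1.29. In each of these roles most genes did not overlap between the groups: 4 of 4 in the stalk, 2 of 2 with the 5S RNA, 7 of 9 at the tunnel, 11 of 12 in the head, 11 of 12 in the body and 4 of 5 at the channel. The whole group had 71 of 83, against 9.26% of all genes tested, so these counts show nothing particular to a place in the ribosome.

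Paralogue pairs, in which a gene has a close relative of the same kind, were compared as reads of the paralogue per read of the parent gene. Rps27l, a paralogue of Rps27 known as a p53 target, had the widest contrast between sorted and cultured cells. Its ratio to Rps27 was 0.290, 0.319 and 0.262 in sham and 0.269, 0.270 and 0.210 in OHT. In the cultures it was 3.60, 5.51 and 4.33, so that Rps27l exceeded its parent in each of them. Rps27l itself was at 61.4, 24.7 and 41.3 ppm in sham, 126, 71.6 and 109 ppm in OHT and 580, 329 and 362 ppm in the cultures. Rps27 was at 212, 77.3 and 158 ppm in sham, 469, 265 and 521 ppm in OHT and 161, 59.7 and 83.6 ppm in the cultures. No stretch of 100 bases in the Rps27l transcript occurs in another gene, whereas 98.4% of those of Rps27 occur in Rps27rt or Gm17241.

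Rpl22l1, the paralogue that Rpl22 protein is known to repress, had 0.856, 0.430 and 0.651 reads per Rpl22 read in sham. In OHT the ratio was 1.25, 0.922 and 0.942, above all sham libraries. The cultures, at 1.05, 0.561 and 0.718, overlapped both groups. Rpl22 differed by 0.77 (SE 0.40) and Rpl22l1 by 1.49 (SE 0.52) on the log2 scale, and the Rpl22 groups overlapped. The Rpl7l1 to Rpl7 ratio was 0.376, 0.618 and 0.439 in sham and 0.272, 0.371 and 0.273 in OHT, without overlap, and 0.199, 0.345 and 0.329 in the cultures.

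The other pairs had lower levels or near-identical sequences. Rpl39l, known from male germ cells and at 13.6 ppm ± 2.55 in the cultures (SD, n = 3), reached 4.36 ppm in sham library 1 and 0.188 to 1.44 ppm in the other sorted libraries. Its ratio to Rpl39 was 0.176, 0.427 and 0.345 in the cultures, above all sorted libraries. Rpl36al had 0.540, 0.657 and 0.673 reads per Rpl36a read in sham, 0.394, 0.495 and 0.520 in OHT, without overlap, and 1.14, 1.20 and 1.13 in the cultures. The Rps4l to Rps4x ratio was 0.0843 ± 0.0339 in sham, 0.0451 ± 0.00762 in OHT and 0.115 ± 0.0252 in cultured cells, and the Rps27rt to Rps27 ratio 0.0608 ± 0.0302, 0.0386 ± 0.0150 and 0.0191 ± 0.00412 (SD, n = 3). Rpl3l, the striated muscle relative of Rpl3, was at 0.0603 and 0.0521 ppm in cultures 1 and 3 and had 0 reads in culture 2, which allows up to 0.0397 ppm (3 reads, for counting error only).

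**Figure D5:**
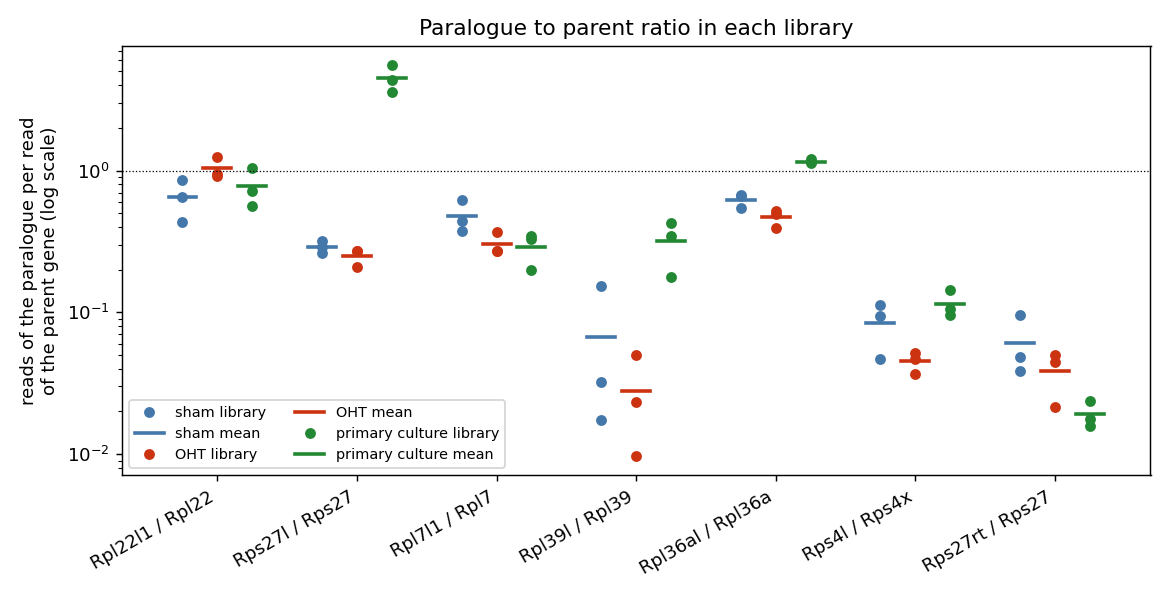
Reads of a paralogue per read of its parent gene (log scale) for 7 pairs, with a point for each library and a bar for each group mean. Rps27l per Rps27 lies at 3.60 to 5.51 in the cultures and at 0.210 to 0.319 in the sorted libraries, and Rpl22l1 per Rpl22 is higher in the 3 OHT than in the 3 sham libraries.

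Between cultured and sorted cells the levels were set side by side in ppm, with no test because the tables were normalised separately. The median ratio of the culture mean to the mean of the 6 sorted libraries was 1.43 over the ribosomal protein genes and 1.14 over 14004 genes present in both tables. Of the genes, 13 were above every sorted library in all cultures, against 33.4% of all genes, and 2 were below every sorted library, against 18.2%. The other 69 overlapped, counting Rpl3l, which has no sorted value. Among the higher ones were Rpl39l (10.4 times the sorted mean), Rpl28 (7.00), Rps27l (5.86), Rpl29 (3.52), Rps4l (2.50), Rplp2 (2.14), Rpl5 (1.97), Rplp0 (1.73), Rpl12, Rpl14, Rpl15 and Rpl27. The lower ones were Rpl32l (0.202 of the sorted mean) and Rpl13 (0.452), the latter at 391, 353 and 414 ppm in the cultures.

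Per coding length, the level in the cultures ran from 0.0307 ppm per kilobase for Rpl3l to 2722 ppm per kilobase for Rpl41, with a median of 581 over 81 genes. Rpl41, the shortest of the proteins, was followed by Rplp0 (1917 ± 494), Rps27l (1682 ± 542), Rps14 (1603 ± 236) and Rps19 (1527 ± 541). From Rplp0 to Rps19 neighbours in this order differed by less than their SD between cultures, while Rpl41 (2722 ± 770, SD, n = 3) lay further from Rplp0. Rpl28, a large subunit gene, was among the lowest (72.3 ± 10.9). In sham it was at 6.21 ppm per kilobase, beside a median of 257 over 80 genes. In OHT the median was 525, and Rpl35 was at 2529. Coding length leaves out untranslated ends, which weigh most in short genes such as Rpl41.

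The cultures differed among themselves more in these genes than in others. Culture 1 was the highest of the 3 for 80 of the 84 genes. The median coefficient of variation between cultures was 32.2% over the ribosomal protein genes and 15.3% over all genes in both tables. The largest spreads were those of Rpl3l (87.3%, at under 5 reads a library), Rpl39 (68.5%) and Rps26 (63.7%). Rpl39, which lies in the exit tunnel, was at 93.9, 28.9 and 34.8 ppm, and Rps26, at the messenger RNA exit, at 420, 134 and 175 ppm. On the log2 scale culture 1 lay above the mean of the others by a median of 0.92 in ribosomal protein genes under 300 coding bases and by 0.64 at 600 to under 900 bases, beside 0.27 and -0.02 for other genes of those lengths.

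The sequence that the genes share with others bears on how firmly their reads can be placed. The median gene had 42.1% of its stretches of 100 bases in transcripts of other GENCODE M21 genes. At least 50% was shared in 36 genes, and 9 shared none, among them Rpl22, Rpl32, Rpl32l, Rpl39l, Rpl3l, Rps21, Rps27l and Rps3. The median log2 difference between OHT and sham was 1.12 in the 16 genes with under 10% shared, 1.45 in the 31 with 10% to 50% and 1.35 in the 36 with at least 50%. Across the 83 genes the Spearman rho of the difference with the shared percentage was 0.02. Of the 16 genes with under 10% shared, 12 did not overlap between the groups on the deposited scale. The whole group had 71 of 83, against 9.26% of all genes tested. Rows of the tables named as ribosomal protein pseudogenes summed to 71.1, 29.7 and 44.0 ppm in sham and 94.4, 66.3 and 61.9 ppm in OHT.

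Genes of the same pathway were read beside the group, from lists of related genes. Of the 7 ribosomal protein genes outside the symbol rule, all were above 0 with a median log2 difference of 1.40, and 5 did not overlap on the deposited scale (4 in ppm), among them Fau (1.64, SE 0.42), which encodes a fusion with a ubiquitin-like protein, Rpl36al (1.55, SE 0.49), Rack1 (1.08, SE 0.32) and Rpsa (1.06, SE 0.37). Among 24 elongation factors and other genes with known TOP tracts, 21 were above 0 with a median of 0.75, and 12 were higher in every OHT library and none lower on the deposited scale (9 higher and 1 lower in ppm). Eef1a1, which brings tRNAs to the ribosome, averaged 2643 ppm ± 285 over the sham and 4032 ppm ± 166 over the OHT libraries (SD, n = 3), with a log2 difference of 0.86 (SE 0.41). Eef2 (0.20, SE 0.31) and Pabpc1 (-0.10, SE 0.41) of the same list overlapped. None of the genes in these or the following lists passed the adjusted threshold in limma.

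Ribosome assembly and its control differed less, but these lists also hold longer genes. Over 57 ribosome biogenesis genes the median log2 difference was 0.32, with 5 higher and 3 lower in every OHT library. These are 8.77% and 5.26% of the list, close to or below the shares of all genes (9.26% and 9.18%), and in ppm there were 2 and 3. The median coding length was 1701 bases in this list and 453 in the ribosomal protein genes. It was 2037 in the chaperones and importers, 1176 in mTORC1 and TOP control and 588 in the mitochondrial ribosomal protein genes. Other genes of 1500 coding bases or more had a median difference of -0.31, with 4.28% higher in every OHT library, so the lists are not compared at like length. The nucleolar protein Ncl averaged 238 ppm ± 50.5 over the sham and 284 ppm ± 123 over the OHT libraries, and Nop56 averaged 131 ppm ± 35.1 and 159 ppm ± 67.5. The 11 tested chaperones and importers of ribosomal proteins had a median of -0.19 with no gene apart on the deposited scale. In ppm 1 of them, Bccip, was higher in every OHT library and none lower. The 21 genes of mTORC1 and TOP control had a median of 0.19. Of these, Larp4 (1.13) and Cnbp (0.41) were higher and Ddit4 (-2.50) lower in every OHT library on the deposited scale. Larp4 and Cnbp overlapped in ppm. The 77 mitochondrial ribosomal protein genes, which build the separate ribosome of mitochondria, had a median of 0.61. On the deposited scale 33 of them (42.9%) were higher in every OHT library and none lower, whereas in ppm 18 were higher and 1 lower.

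The makeup of the sorted libraries moved along with the group. The microglia and macrophage list, with all 14 genes read in every sorted library, was at 5.45%, 3.65% and 3.57% in sham and at 6.47%, 5.49% and 4.94% in OHT. Its median log2 difference was 0.59, with 7 of 14 genes higher in every OHT library. The rod list was at 0.292%, 2.67% and 2.21% in sham and at 0.103%, 0.118% and 0.372% in OHT, with all 14 genes read in every sorted library. Sham library 1 overlapped the OHT range of the rod list and had the highest ribosomal protein share of the sham libraries, and sham library 2 had the most rod reads and the lowest ribosomal protein share. The OHT libraries did not follow this order. Among them library 3 had both the most rod reads and the highest ribosomal protein share (3.25%). OHT library 2, with 0.118% rod reads, had the lowest ribosomal protein share of its group (2.18%). The Müller glia list had a median log2 difference of -0.81, with 2 of 14 genes lower in every OHT library, and its mean share was 0.784% in sham and 0.382% in OHT. The astrocyte list, with 6 or 7 of 8 genes read in each sorted library, was at 0.0423% to 0.263% in sham and 0.0277% to 0.0607% in OHT (median -1.85 over 7 tested genes). The vascular, mural and fibroblast list, with 11 to 13 of 13 genes read, was at 0.0358% to 0.0666% and 0.0118% to 0.0229% (median -1.66 over 11 tested genes). The part of the cell mixture in the difference between OHT and sham was not tested.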

How the data were processed

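RNA sequencing of 9 mouse libraries was analysed. The authors deposited a signal value per gene and library in separate tables for the 6 sorted and 3 cultured libraries. The deposited values are counts scaled by a single factor for a library, and dividing by the smallest step gave whole reads for 100% of values (tolerance 0.05 reads). In culture 3 the step is close to 1, so the check says little there. Per the submitters' processing notes, bcl2fastq 2.20, Trim Galore 0.6.6, FastQC 0.11.9, STAR 2.7.1a and the build mm39 were used. The sources used here do not name the annotation, the counting program or the treatment of reads that fit several genes.

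Groups came from the labels. Genes averaging 10 or more in the sorted table (14403, with all 83 ribosomal protein genes) were fitted with limma 3.58.1 (variance trend, R 4.3.3) on log2(value + 1), without covariates, with Benjamini-Hochberg adjustment over all of them and a threshold of 0.05. DESeq2 1.42.0 and the quasi-likelihood test of edgeR 4.0.16 on recovered reads, other pseudocounts, filters and scalings, a replicate block and leaving out each library were alternatives. Corrections for coding length or GC content (splines with 4 degrees of freedom) and the counts without overlap after leaving out a library were added after seeing the data. Fold changes on this scale understate those of low genes. The fits were tested on simulated data. Shares and ratios use recovered reads, with a mean ± SD over 3 libraries, in Python 3.11.15, numpy 2.4.6, pandas 2.3.3 and matplotlib 3.10.9.

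Coding length is that of the APPRIS principal transcript in GENCODE M21 (GRCm38), and shared sequence was counted in stretches of 100 bases. Promoter coordinates are RefSeq's on GRCm38.p6, not the authors' build. The genes and all lists were chosen with earlier results of these data known. Named were Rpl35, the paralogue pairs, the 5 highest and 5 lowest differences, the 3 largest rises and falls of the share of the sum, the 5 highest and 3 lowest levels per length and the 3 largest spreads in the cultures, the stalk and 5S RNA genes, Rps6, and up to 3 genes per related list by level. Some genes that this rule names are not reported here. Rps2, Rpl13 and others in lists of names were singled out after their values were seen.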

Additional observations from a re-analysis of the deposited data

How the results depend on the processing

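All 83 genes kept a positive log2 difference with pseudocounts of 0.5 and 10, without a filter, with TMM factors and with a replicate block. Quantile normalization and the library total put Rps2 below 0, edgeR and DESeq2 put Rpl39l below 0, and leaving out 1 library put at most 2 genes below 0. Against 0 genes called by limma over all 14403 genes, DESeq2 on the recovered reads called 250 and limma with the replicate block called 2. Leaving out 1 library gave between 0 and 12 calls, with 12 without sham library 1 and 7 without sham library 3. Correction for coding length together with the replicate block, chosen after seeing the data, gave 28 calls among 13544 genes, with 1 of the ribosomal protein genes, Rpl35 (limma adjusted p 0.0392). With the block alone the limma adjusted p of Rpl35 was 0.0509, and with all other settings of limma or edgeR it was between 0.178 and 0.904, and with DESeq2 0.00173. The cause of these changes was not tested. Rpl35 and this contrast were known when the genes were chosen, so nothing is read from its p-values here. Whether the replicate numbers pair the samples cannot be told from these values. The deviations of same-numbered sham and OHT libraries from their group means had correlations of 0.08, -0.02 and -0.05 across all genes tested. Sham library 2 correlated most with OHT library 3 (0.10). In the ribosomal protein genes the median deviations were 0.44, -0.64 and 0.14 for sham libraries 1 to 3. For OHT libraries 1 to 3 they were 0.65, -0.58 and -0.07, so that library 1 was the highest and library 2 the lowest in both groups. The median difference of the ribosomal protein genes, the difference of Rpl35, the summed share and the subunit ratio stayed within the spread between replicates under the alternatives tried. So did the summed share in the cultures. Paralogue ratios, shares of the sum and differences of other single genes were not judged in this way. The counts of genes without overlap, at 62 to 79 beside 71, were not judged against that spread. Replicates of a group differed by a chi-square of 85.1 to 940 per ribosomal protein gene, where counting error alone gives about 1, so that 3 libraries in a group limit what these comparisons can show.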

Other observations

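In the cultures other parts of the pathway stood further from the sorted cells than the ribosomal protein genes did. Of the 57 ribosome biogenesis genes in both tables, 43 lay above every sorted library in all cultures, against 33.4% of all genes. The 58 listed genes took 0.591% to 0.619% of the culture reads, 0.204% to 0.266% of the sham reads and 0.226% to 0.325% of the OHT reads. Ncl, the main nucleolar protein of ribosomal RNA synthesis, was at 843, 715 and 783 ppm in the cultures and at 200 to 425 ppm in the sorted libraries. Eif6, which keeps the subunits apart until assembly ends, was at 411 ppm ± 84.3 in the cultures (SD, n = 3) and at 150 to 187 ppm in the sorted libraries.

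The p53 arm, to which Rpl5 and Rpl11 connect, had 4 of its 6 listed genes above every sorted library in all cultures (Rpl5, Mdm2, Cdkn1a and Trp53), a place that 33.4% of all genes also had. Mdm2, the ligase that degrades p53, was at 474, 459 and 431 ppm in the cultures and at 15.7 to 61.9 ppm in the sorted libraries. Cdkn1a, a p53 target that halts the cell cycle, was at 1189, 750 and 731 ppm in the cultures, at 178, 136 and 187 ppm in sham and at 281, 215 and 541 ppm in OHT. Trp53 itself was at 163, 97.4 and 112 ppm in the cultures and at 44.5 to 59.6 ppm in the sorted libraries. Mdm4 overlapped, at 58.2 to 71.9 ppm in the cultures. These genes were named from a list of related genes with the results known, and no cause was tested.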
